A study of Homo sapiens with 8 samples.

Results

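Complex I, or NADH:ubiquinone oxidoreductase, is the first enzyme of the mitochondrial respiratory chain, and its nuclear-encoded genes are described here in stretched lung epithelial cells that did or did not stain for β-galactosidase. The members were all rows of the count matrix whose symbol begins with NDUFA, NDUFB, NDUFC, NDUFS or NDUFV, assembly factors of the NDUFAF series included, with pseudogenes left out. This gave 43 of 13841 rows. They comprised 35 subunit genes of the 37 listed, 6 assembly factors of the 8 listed, and NDUFA4 with its relative NDUFA4L2. The product of NDUFA4 is assigned to complex IV despite its name, and the pair was kept apart from the subunits. NDUFA9, NDUFC2, NDUFAF6 and NDUFAF8 were not analysed here. Of the 43 members, 41 passed the filter on low counts and were tested, namely 33 subunits, 6 assembly factors and the NDUFA4 pair. NDUFC1 (1 to 3 counts per library) and NDUFA13 (0 to 8) did not pass.

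The cells were A549, a human lung cancer cell line with features of alveolar type II epithelium. All cells, in both groups, had undergone cyclic stretch (15% elongation, 15 cycles per min, 24 h) and another 6 days of culture before they were sorted on β-galactosidase staining, a common marker of senescence. The 4 positive libraries (numbers 1, 3, 4 and 5) are labelled senescent and the 4 negative libraries (2, 6, 7 and 8) non-senescent. Libraries were made from total RNA with an amplicon kit, which amplifies a short stretch of each transcript, so levels of different genes are not comparable with each other and each gene is compared only with itself between libraries. No unstretched cells enter the comparison. The labels used here state neither separate cultures within a group nor whether positive and negative libraries shared a culture, and the tests treat all libraries as independent. The p-values therefore reflect only the variation among these 8 samples, part of which may be technical. In such bulk samples, fewer cells of a type and less RNA per cell cannot be told apart.

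Complex I takes electrons from NADH and passes them to ubiquinone while it pumps protons across the inner mitochondrial membrane. Its L shape is built from modules that are assembled separately. The N module in the matrix binds and oxidizes NADH, the Q module below it carries electrons to ubiquinone, and the membrane arm, made of the ND1 and ND2 modules near the junction and the ND4 and ND5 modules farther out, pumps protons. The catalytic core consists of nuclear-encoded and mitochondrially encoded subunits, and many accessory subunits surround it and are needed for its assembly or stability. Assembly factors build the modules or modify subunits and are not part of the finished enzyme. The transcription factors NRF1 and GABP are textbook regulators of nuclear respiratory genes.

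Shown as examples are 4 of the promoter stretches that hold a binding motif of these factors before the transcription start, since members of 1 complex are often taken to share such sites. RefSeq windows of 250 bases before to 50 bases after the start (GRCh38.p14) were found for 37 of the 43 members. NDUFA4, NDUFA4L2, NDUFB5, NDUFB9 and NDUFS5 were among those without one. The NRF1 core, GCGCA and GCGC with any base between them, searched on both strands, was in 12.8% of the 47 windows of the members and in 5.78% of all 35116 windows, and the members holding it were NDUFA3, NDUFA8, NDUFA11, NDUFA12, NDUFAF5 and NDUFB4. Of these, NDUFA12 lies at chr12:95003779-95003838 (minus strand), NDUFA3 at chr19:54102660-54102719 (plus) and NDUFB4 at chr3:120596152-120596211 (plus). The ETS core CCGGAAG, to which GABP binds, was in 12.8% of the members' windows and in 10.3% of all windows, in NDUFA1, NDUFA13, NDUFAF4, NDUFB7, NDUFS1 and NDUFS3, and is shown in the promoter of the assembly factor NDUFAF4 at chr6:96898007-96898063 (minus). Each stretch is written 5′ to 3′ on the strand of its gene, with the motif in capitals.
NDUFA12: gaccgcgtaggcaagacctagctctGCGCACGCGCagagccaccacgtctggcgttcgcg
NDUFA3: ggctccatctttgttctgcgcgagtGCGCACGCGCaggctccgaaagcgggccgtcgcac
NDUFB4: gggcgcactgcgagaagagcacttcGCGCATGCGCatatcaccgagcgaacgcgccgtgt
NDUFAF4: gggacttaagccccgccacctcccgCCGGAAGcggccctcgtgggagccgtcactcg
The motif of YY1, AAGATGGCG, was in 10.6% of the members' windows and 1.75% of all windows, in NDUFA6, NDUFA7, NDUFB8, NDUFS4 and NDUFS7, in each case after the start. A match of letters is not a bound site. The log2 fold change, positive minus negative, was read for the tested members with each motif. With the NRF1 core it was -0.86 for NDUFA8, -0.79 for NDUFA12, -0.29 for NDUFB4, -0.17 for NDUFA3, -0.13 for NDUFA11 and 0.20 for NDUFAF5. Without negative 2 these were -0.41, -0.48, -0.15, -0.16, 0.47 and 0.44. With the ETS core it ranged from -0.48 (NDUFB7) to -0.01 (NDUFS3), and without negative 2 from -0.22 (NDUFA1 and NDUFS1) to 0.00 (NDUFS3). With the YY1 motif it ranged from -0.43 (NDUFB8) to -0.18 (NDUFS4), and without negative 2 from -0.27 (NDUFB8) to -0.06 (NDUFS4). A link of any motif with the fold change was not tested.

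Total counts ranged from 5634961 to 7990839 per library. Positive 1 and negative 2 stood apart from the rest: negative 2 had the highest of the 8 values for 29.4% and the lowest for 26.2% of all tested rows, and positive 1 for 23.9% each. The epithelial and A549 markers fixed for this check were all measured, and their summed level was 7493 to 9053 CPM (each count as a share of the TMM-scaled library total, TMM being the trimmed mean of M values) in positive and 9756 to 11538 in negative cells, with all 10 fold changes below 0. Fibroblast markers summed to 48.7 to 62.3 CPM in positive and 52.3 to 97.4 in negative cells over the 6 of 8 measured, most of it ACTA2. Leukocyte markers summed to 70.2 to 75.1 and 57.0 to 75.5 over 3 of 5, most of it LYZ and CD68, with PTPRC and CD3E not analysed here. Of 4 endothelial markers CDH5 alone was measured, at 0 counts in positive 1, negative 6 and negative 7. The part of these markers in the results was not tested.

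Most subunit genes of complex I had slightly lower estimated levels in the positive than in the negative cells, and no single member passed the test. In edgeR's quasi-likelihood test, adjusted over all 11351 rows, 0 rows and 0 members passed an adjusted p of 0.05, against a background of 0% of rows called. The smallest adjusted p was 0.309, for members and for all rows alike. DESeq2's Wald test called 52 rows, or 0.458%, and no member (smallest adjusted p among members 0.121), and limma voom called 0 rows (0.160). The log2 fold change was below 0 for 27 of 33 subunits (81.8%), against 51.9% of all rows, with a median of -0.29 against -0.02. At an unadjusted p under 0.05, 7 subunits were lower (21.2%, against 6.85% of all rows) and 1 was higher (3.03%, against 7.52%). Groups did not overlap, with the positive libraries lower, for 4 subunits (12.1%, against 4.14% of all rows), and the reverse held for 0 (against 5.0%). The 95% interval of a subunit's log2 fold change reached a median of 0.42 to either side.

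**Figure D1:**
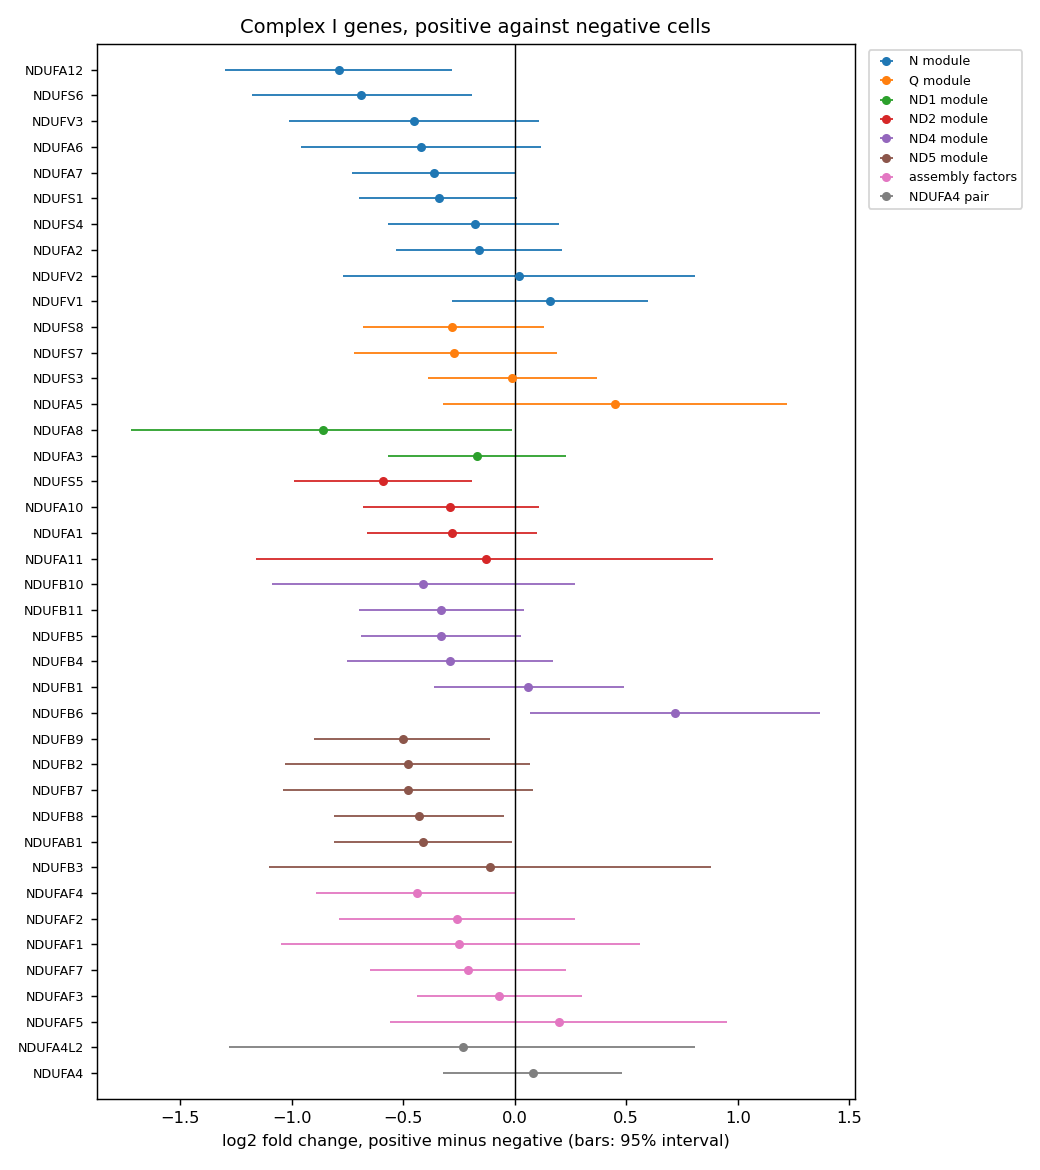
Log2 fold change, positive minus negative, on the horizontal axis for 40 of the 41 tested members, grouped by module in color, with 95% intervals as bars. Most points lie left of 0, NDUFA8 lies lowest at -0.86, and NDUFB6 lies farthest to the right at 0.72.

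The 7 nuclear-encoded catalytic core subunits had a median log2 fold change of -0.01, with 4 of 7 below 0, and the 26 accessory subunits tested had a median of -0.35, with 23 below 0. Without negative 2 the core median was -0.15 and the accessory median -0.21. By module, the medians were -0.35 for the N module (8 of 10 below 0), -0.01 for the Q module (3 of 5), -0.52 for the ND1 module (2 of 2), -0.28 for the ND2 module (4 of 4), -0.31 for the ND4 module (4 of 6) and -0.46 for the ND5 module (6 of 6). Without negative 2 they were -0.24 (N), 0.00 (Q), -0.28 (ND1), -0.30 (ND2), -0.11 (ND4) and -0.22 (ND5), so the order of the modules depends on this library. When NDUFA6, NDUFA7 and NDUFA12, which some schemes place elsewhere, were moved to the Q module, the N and Q medians were -0.18 and -0.27. The order of the N and Q modules therefore depends on the scheme as well. No difference between modules was tested.

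In the N module, the accessory subunits NDUFA12 and NDUFS6 had the smallest p. NDUFA12, which joins the complex late in assembly, was at 41.4, 43.8, 37.4 and 43.8 CPM in positive 1, 3, 4 and 5 and at 112, 53.3, 70.4 and 52.3 CPM in negative 2, 6, 7 and 8. All positive libraries lay below all negative ones, and negative 2 lay well above the other negatives. Its log2 fold change was -0.79 ± 0.24 (SE; edgeR unadjusted p = 0.00568, adjusted p = 0.309), and -0.48 without negative 2. The gene lies on chromosome 12 at 94897055 to 95003770 (GRCh38, GENCODE 29) and is protein-coding, like all members.

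NDUFS6, a zinc-binding subunit at the junction of the N module with the rest of the matrix arm, was at 56.2, 88.9, 69.2 and 69.7 CPM in positive 1, 3, 4 and 5 and at 168, 84.1, 107 and 98.4 in negative 2, 6, 7 and 8. Positive 3 lay above negative 6, so the groups overlapped by this pair. The log2 fold change was -0.69 ± 0.23 (SE; edgeR unadjusted p = 0.0105, adjusted p = 0.309), and -0.43 without negative 2.

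NDUFS1, the largest core subunit, which carries iron-sulfur clusters, was at 60.6, 71.2, 68.4 and 74.3 CPM in the positive libraries (in the order 1, 3, 4 and 5, here and below) and at 105, 85.5, 80.9 and 76.9 in the negative ones (2, 6, 7 and 8). The groups did not overlap, with positive 5 and negative 8 nearest to each other, and the estimate was -0.34 (95% interval -0.70 to 0.01), and -0.22 without negative 2. NDUFV1, the subunit that binds FMN and NADH, stood at 207, 128, 146 and 125 CPM in positive and 104, 150, 147 and 140 in negative cells, with positive 1 highest and negative 2 lowest of all. Its log2 fold change was 0.16 (-0.28 to 0.60), and -0.03 without positive 1. NDUFV2, which carries a further cluster beside NDUFV1, was at 35.9, 40.1, 65.4 and 55.2 CPM in positive and 16.9, 66.2, 40.6 and 70.6 in negative cells. Negative 2 was the lowest library here too, and the log2 fold change was 0.02 (-0.77 to 0.81). The other accessory subunits of the module, NDUFV3, NDUFA6, NDUFA7, NDUFS4 and NDUFA2, had log2 fold changes from -0.45 (NDUFV3) to -0.16 (NDUFA2), none at an unadjusted p under 0.05. Without negative 2 NDUFV3 stood at -0.26, NDUFA6 at -0.09, NDUFS4 at -0.06 and NDUFA2 at 0.00.

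The Q module carries electrons to ubiquinone, and its core subunits had 95% intervals that spanned 0. NDUFS3 was at 332, 278, 334 and 218 CPM in positive and 291, 306, 270 and 302 in negative cells, at -0.01 (-0.39 to 0.37). It encodes a core subunit of the matrix arm, and the libraries of both groups were interleaved. NDUFS7, which carries the last iron-sulfur cluster before ubiquinone, was at 20.5, 33.1, 22.0 and 24.9 CPM in positive and 33.7, 30.8, 32.6 and 23.8 in negative cells, at -0.27 (-0.72 to 0.19). NDUFS8, another cluster-bearing subunit, was at 264, 301, 264 and 310 CPM in positive and 420, 281, 407 and 273 in negative cells, at -0.28 (-0.68 to 0.13). For NDUFS8 negative 2 and negative 7 were high, while negative 6 and 8 lay among the positives, and the estimate without negative 2 was -0.15. NDUFA5, an accessory subunit with 12 annotated pseudogenes, stood at 0.45 (-0.32 to 1.22), at 0.17 without negative 2 and at 0.69 without negative 8.

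In the membrane arm near the junction, NDUFS5 and NDUFA8, both accessory subunits with cysteine motifs typical of the intermembrane space, were lower at an unadjusted p under 0.05. NDUFS5 was at 254, 260, 237 and 232 CPM in positive and 452, 345, 412 and 267 in negative cells. The positive libraries lay close together and below every negative library, and negative 8 lay closest to them. The log2 fold change was -0.59 ± 0.18 (SE; edgeR unadjusted p = 0.00754, adjusted p = 0.309), and -0.46 without negative 2.

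NDUFA8 was at 50.7, 32.4, 38.9 and 14.8 CPM in positive and 111, 45.0, 59.4 and 32.8 in negative cells. The groups overlapped, and positive 5 lay far below negative 8, while positive 1 lay above negative 6. Its log2 fold change of -0.86 ± 0.39 (SE; edgeR unadjusted p = 0.0482, adjusted p = 0.345) moved to -1.11 when positive 1 was left out and to -0.41 when negative 2 was. Of the remaining members, NDUFA10 and NDUFA1 stood at -0.29 and -0.28, NDUFA3 at -0.17 and NDUFA11 at -0.13. NDUFA11 stood at 0.47 without negative 2 and at -0.41 without positive 5.

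In the outer membrane arm, all 6 ND5 module genes were below 0, and NDUFB9, NDUFB8 and NDUFAB1 were lower at an unadjusted p under 0.05. NDUFB9 was at 388, 430, 434 and 405 CPM in positive and 717, 605, 602 and 423 in negative cells. Negative 2, 6 and 7 were well above all positive libraries, and negative 8 lay between positive 5 and positive 3. The log2 fold change was -0.50 ± 0.18 (SE; edgeR unadjusted p = 0.0161, adjusted p = 0.312), and -0.38 without negative 2. NDUFB8, whose protein is often used to probe complex I because it is lost when the enzyme does not assemble, was at 265, 276, 307 and 272 CPM in positive and 483, 342, 366 and 316 in negative cells. The groups did not overlap, and the log2 fold change was -0.43 ± 0.17 (SE; edgeR unadjusted p = 0.0285, adjusted p = 0.320). Without negative 2 it was -0.27 at an edgeR unadjusted p of 0.0910.

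NDUFAB1, the mitochondrial acyl carrier protein, which also serves in fatty acid and lipoic acid synthesis, was at 90.1, 93.8, 122 and 107 CPM in positive and 178, 112, 128 and 131 in negative cells. Positive 4 lay above negative 6, and the log2 fold change was -0.41 ± 0.19 (SE; edgeR unadjusted p = 0.0475, adjusted p = 0.345). Without negative 2 it was -0.24 at an edgeR unadjusted p of 0.163. NDUFB2 and NDUFB7 were both at -0.48 and NDUFB3, with 4 to 16 counts per library, at -0.11. Without negative 2 these stood at -0.16, -0.21 and 0.25. In the ND4 module NDUFB10, NDUFB5, NDUFB11 and NDUFB4 were at -0.41, -0.33, -0.33 and -0.29 and NDUFB1 at 0.06. Without negative 2 NDUFB10 stood at -0.08 and NDUFB4 at -0.15, and the others at -0.27 (NDUFB5), -0.32 (NDUFB11) and 0.02 (NDUFB1).

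NDUFB6, an accessory subunit of the ND4 module, was the 1 member higher at an unadjusted p under 0.05. It was at 21.9, 11.8, 19.1 and 17.6 CPM in positive and 5.38, 13.7, 10 and 13.4 in negative cells. Positive 1, 4 and 5 exceeded every negative library and positive 3 lay among the negatives, with negative 2 the lowest of all. The log2 fold change was 0.72 ± 0.30 (SE; edgeR unadjusted p = 0.0325, adjusted p = 0.323). Without negative 2 it was 0.51 at an edgeR unadjusted p of 0.0546. With single libraries left out, the edgeR unadjusted p of NDUFB6 ranged from 0.0159 (without positive 3) to 0.0827 (without positive 1). In limma voom with library weights its unadjusted p was 0.134.

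**Figure D2:**
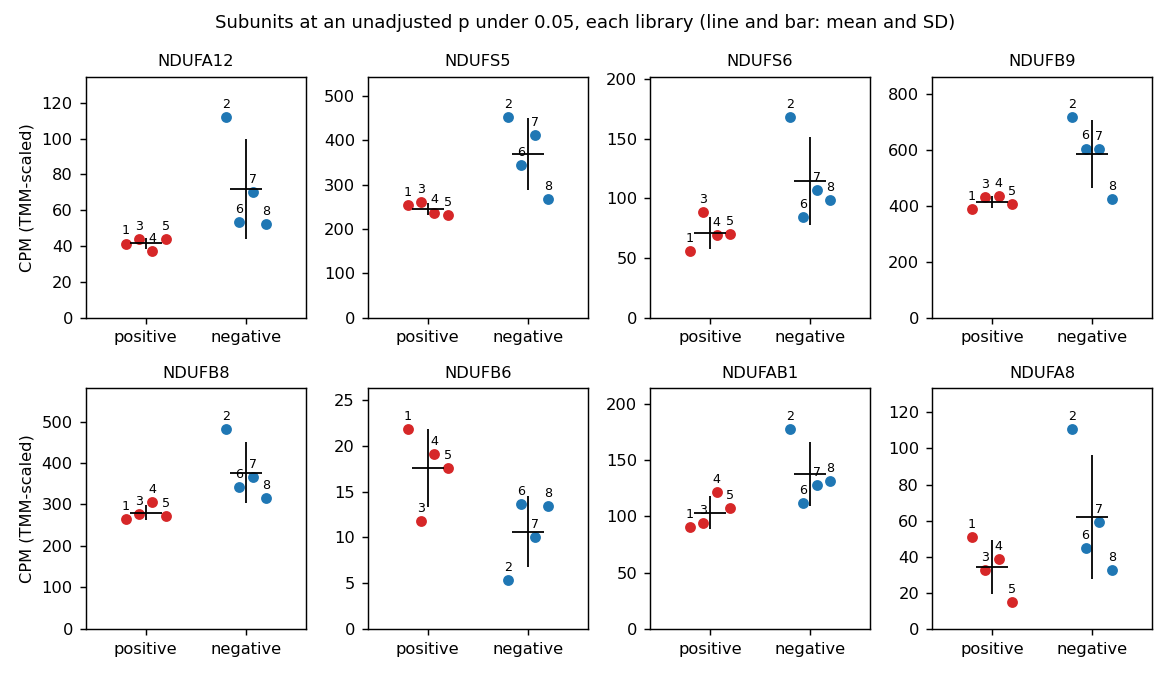
CPM (vertical axis, from 0) in each library, marked with its number, for the 8 subunits at an unadjusted p under 0.05, with positive cells in red, negative cells in blue, and the mean and SD of each group of 4 in black. Negative 2 is the highest library for 7 of the genes and the lowest for NDUFB6.

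The assembly factors had a median log2 fold change of -0.23 (-0.09 without negative 2), with 5 of 6 below 0 (against 51.9% of all rows). With all libraries none was lower (against 6.85% of all rows) or higher (against 7.52%) at an edgeR unadjusted p under 0.05. NDUFAF4, which with NDUFAF3 helps to build the Q module, had the smallest p. It was at 38.7, 40.6, 40.5 and 36.4 CPM in positive and 75.5, 52.0, 45.1 and 40.2 in negative cells, with negative 8 just below positive 3 and 4. Its log2 fold change was -0.44 (95% interval -0.89 to 0.00), and -0.21 without negative 2. The edgeR unadjusted p of NDUFAF4 was 0.0281 without negative 8, 0.0436 without negative 7 and 0.0451 without the filter on low counts. In no other fit was it under 0.05. NDUFAF2, a relative of NDUFA12 that holds its place in the assembling complex, was at 69.2, 38.8, 62.8 and 40.8 CPM in positive and 78.8, 41.8, 69.5 and 63.6 in negative cells. The groups overlapped over most of their range, and the log2 fold change was -0.26 (-0.79 to 0.27), and -0.13 without negative 2. In limma voom with library weights the unadjusted p of NDUFAF2 was 0.0465, and in no other fit was it under 0.05.

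NDUFAF5, an enzyme that hydroxylates NDUFS7, rested on 9 to 36 counts per library. It was at 3.17, 3.40, 4.0 and 4.72 CPM in positive and 4.80, 1.52, 3.24 and 3.71 in negative cells, the only tested factor of the NDUFAF series above 0, at 0.20 (-0.56 to 0.95), and at 0.44 without negative 2. NDUFAF1, part of the complex that assembles the ND2 module, was at -0.25 on 8 to 25 counts, NDUFAF7, a methyltransferase, at -0.21 (-0.04 without negative 2) and NDUFAF3 at -0.07. Of the other assembly factors, which do not carry the NDUF prefix, 12 of 14 were tested and 9 were below 0 (against 51.9% of all rows). Their median was -0.28, or -0.13 without negative 2. TIMMDC1, needed for the ND1 module, was lower at an unadjusted p under 0.05 (-0.70, 95% interval -1.33 to -0.06), and stood at -0.38 without negative 2, where its edgeR unadjusted p was 0.143. TMEM126B, needed for the ND2 module, was higher at that level (0.81, 0.15 to 1.47). Without negative 2 TMEM126B stood at 0.62, at an edgeR unadjusted p of 0.0348. Neither passed the adjusted threshold.

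NDUFA4 was at 394, 447, 557 and 479 CPM in positive and 341, 524, 419 and 494 in negative cells. The groups overlapped throughout, with a log2 fold change of 0.08 (-0.32 to 0.48). NDUFA4L2, a relative of NDUFA4 known to respond to hypoxia, was at 1.67, 4.57, 3.73 and 3.54 CPM in positive and 1.74, 6.09, 6.64 and 1.71 in negative cells, from 10 to 43 counts, at -0.23 (-1.28 to 0.81).

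Negative 2 stood apart from the other negative libraries for most subunits. It was the highest of the 8 libraries for 22 of 33 subunits (66.7%, against 29.4% of all rows) and for 4 of 6 assembly factors. Positive 1 was the lowest for 13 of 33 subunits (39.4%, against 23.9% of all rows). Over the subunits, negative 2 exceeded the mean of the other 3 negative libraries by a median of 0.42 on the scale log2(CPM + 0.5), against 0.02 over all rows. Negative 8 lay a median of 0.31 below the mean of its other 3, which holds the high negative 2 (all rows 0.01 above). Averaged over the subunits on this scale, negative 2, 6, 7 and 8 stood at 6.95, 6.68, 6.77 and 6.60. Negative 2 lay under every other negative library for 6 subunits, among them the core subunits NDUFV1 and NDUFV2 and the accessory subunits NDUFA5, NDUFA10 and NDUFB6.

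**Figure D3:**
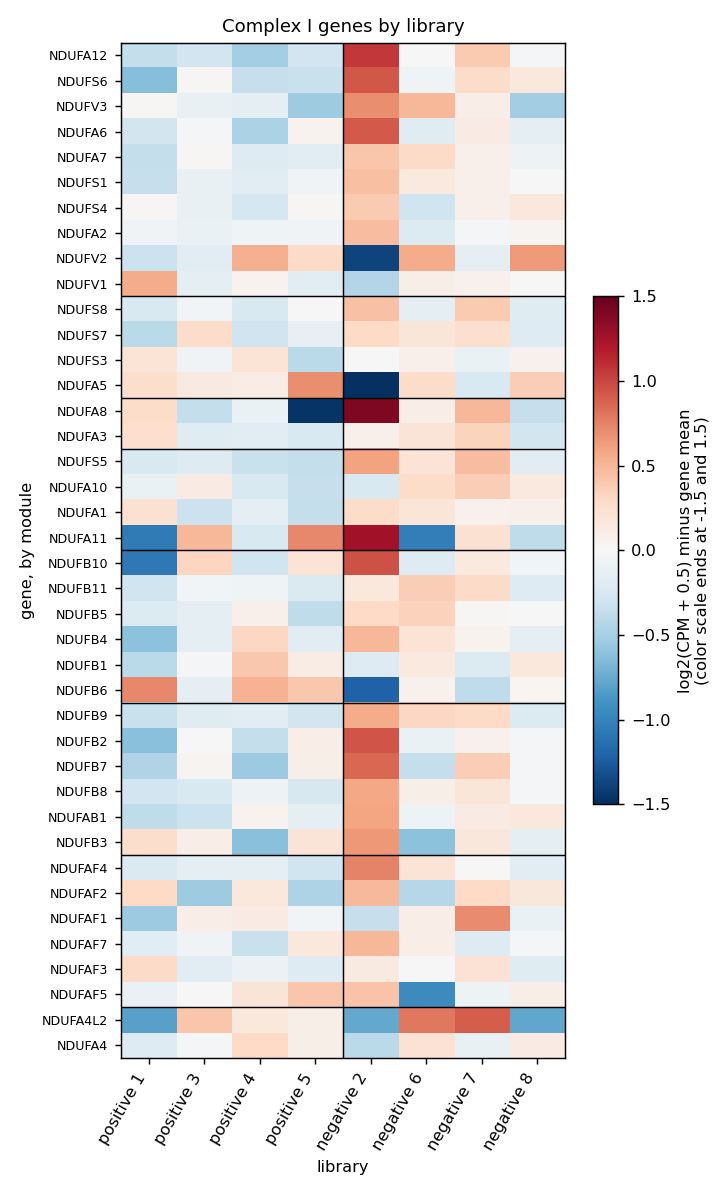
Each cell shows log2(CPM + 0.5) of a gene in a library minus the mean of that gene over the 8 libraries, with red above and blue below the mean, with 40 of the 41 tested members in rows by module and libraries in columns. The column of negative 2 is red for most subunits and blue for NDUFV2, NDUFA5 and NDUFB6.

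Without negative 2 the subunit median was -0.19, with 24 of 33 below 0 (against 48.2% of all rows), and 5 were lower at an unadjusted p under 0.05 (against 3.01% of all rows). Of the 7 subunits that were lower at that level with all libraries, 4 were lower again, namely NDUFA12, NDUFS5, NDUFS6 and NDUFB9, and NDUFA10 joined them. Without both positive 1 and negative 2 the median was -0.12 with 26 of 33 below 0 (against 47.9% of all rows). Of the 7, 3 were lower at that level, NDUFA12, NDUFS5 and NDUFB9, with NDUFA1 and NDUFA10 besides (against 4.27% of all rows). In the same fit NDUFA11 was higher, at 0.72 (edgeR unadjusted p = 0.0387). Without positive 1 alone, 27 of 33 were below 0 and 7 were lower at an unadjusted p under 0.05 (against 5.49% of all rows). NDUFA12, NDUFS5 and NDUFB9 were lower at an unadjusted p under 0.05 in each of the 16 alternative fits. These fits reuse all or most of the same 8 libraries and are not independent repeats. No member passed an adjusted p of 0.05 in any of them. Scaling by library totals alone moved the median of all rows from -0.02 to 0.10. There 24 of 33 subunits were below 0 (against 39.5% of all rows) and 4 were lower at an unadjusted p under 0.05 (against 2.85%). With this scaling NDUFB6 was higher at that level (edgeR unadjusted p = 0.0303). Relative to the median of all rows, the subunit median was -0.27 with TMM scaling and -0.28 with library totals.

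**Figure D4:**
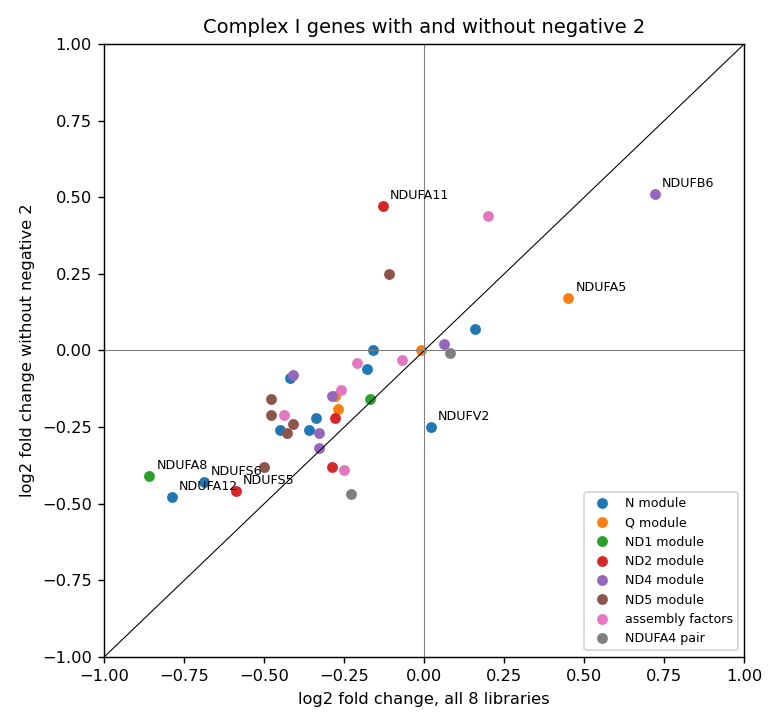
Log2 fold change of 40 of the 41 tested members with all 8 libraries (horizontal axis) and without negative 2 (vertical axis), in color by module, with the line of equal values. Most members below 0 lie above the line, nearer to 0, as does NDUFA12 at -0.79 and -0.48, and NDUFA11 crosses 0.

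The mitochondrially encoded core subunits had few counts. Of 7 genes 6 had a row and 2 were tested. MT-ND4 was at 87, 16, 9 and 6 counts in positive and 4, 9, 11 and 16 in negative cells, and MT-ND2 at 40, 7, 5 and 10 and at 9, 14, 15 and 11. In both, positive 1 was above all other libraries, which otherwise overlapped. Their log2 fold changes were 1.56 (-0.24 to 3.36) and 0.29 (-1.11 to 1.69). Summed over the 6 genes, the level was 38.7 CPM in positive 1 and 3.05 to 6.79 CPM in the other libraries. At such counts the levels and fold changes of these genes are uncertain.

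The nuclear-encoded subunits of the other respiratory complexes also had medians below 0. The median was -0.29 for complex II (4 of 4 below 0), -0.40 for complex III (8 of 9), -0.45 for complex IV (8 of 9 tested) and -0.29 for ATP synthase (13 of 15), against 51.9% of all rows below 0. At an unadjusted p under 0.05, 1, 4, 4 and 4 of these were lower (against 6.85% of all rows) and 0 higher (against 7.52%). Without negative 2 the medians were -0.26, -0.13, -0.21 and -0.20, and 1, 0, 1 and 2 were lower at that level (against 3.01% of all rows). None passed the adjusted threshold, and no difference of complex I from these complexes was tested. The regulators of mitochondrial biogenesis, among them NRF1, GABPA and TFAM, which controls mitochondrial DNA, had a median of 0.09, with 4 of 11 below 0 and none at an unadjusted p under 0.05. TFAM was at 22.4, 14.8, 20.4 and 23.7 CPM in positive and 7.42, 18.6, 10.2 and 19.5 in negative cells, at 0.54 (-0.12 to 1.2), with negative 2 again the lowest, and at 0.35 without it.

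Annotated pseudogenes can divide or add reads of their parent gene. GENCODE 29 lists 58 pseudogenes for 18 of the 43 members, with 12 for each of NDUFA5 and NDUFB4 and 6 for NDUFS5, and the values of such members are uncertain for that reason. The 17 tested subunits without an annotated pseudogene had a median log2 fold change of -0.27, with 14 below 0. Subunit transcripts are short, with a median of 1333 bases for the longest annotated transcript, against 3685 over the tested rows with a length. A trend of fold change with transcript length and GC content was fitted over these rows. The trend gave the subunits a median of -0.07, against 0.01 for these rows. Once it was subtracted, the medians were -0.28 for the subunits and -0.05 for these rows. The length and GC content were those of transcripts, not of the amplified stretches, so an effect of the amplicons was not tested.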

How the data were processed

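Transcripts of 8 A549 samples were measured. Per the labels' protocols, Trizol was used for total RNA and an Ion AmpliSeq human transcriptome kit for the libraries. The submitters' processing notes name Salmon 1.9, fastp 0.20.1 and GRCh38. The deposited matrix holds estimated counts, which are whole numbers as given. For the annotation, the summing to genes and the row filter, the steps were not given in the sources used here.

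Counts were fitted over the whole table with edgeR 4.0.16 (filterByExpr with a minimum count of 10 and total of 15, TMM, robust quasi-likelihood test, Benjamini-Hochberg over 11351 rows, threshold 0.05, R 4.3.3). The filter removed 2490 rows. Alternatives were other scalings, filters, DESeq2 1.42.0, limma 3.58.1 voom with library weights, summed symbols, libraries left out, and, chosen after seeing the data, removal of a polynomial curve over transcript length and GC content. No libraries of a group agreed within sampling noise (lowest chi-square per degree of freedom 8.44). Amplicon reads carry no molecular identifiers.

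Members and lists were chosen with earlier results of these data known, so lists are described by counts and medians without a test. Values in each library are given for members at an unadjusted p under 0.05, the smallest p of each module, the core subunits (values of 1 member are not reported here, though it is in all counts and medians), the NDUFA12 and NDUFAF2 and the NDUFA4 pairs and the highest fold change. Coordinates are from GENCODE 29.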

Additional observations from a re-analysis of the deposited data

Results flagged for a closer look

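Among the 41 tested members, each group of 4 libraries was checked for a library that stood apart from the rest by the Dixon test at the 95% level, which chance gives in about 1 of 20 groups. Of 82 groups, 2 held such a library, where about 4.1 would follow from chance. The groups come from the same 8 libraries and are not independent. Each gene was checked alone, so this count does not show whether a library stood apart over many members. NDUFB2, an accessory subunit of the ND5 module, was at 335 CPM in negative 2 and at 163 to 182 in the other negative libraries. Its log2 fold change was -0.48 with all libraries and -0.16 without negative 2. NDUFA3, an accessory subunit of the ND1 module, was at 125 CPM in positive 1 and at 89.3 to 93.0 in the other positive libraries.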

How the results depend on the processing

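No paired analysis was possible because each library number is used once, so any dependence between the groups was not tested. The count of rows called over the whole table, 0 in edgeR, was 52 with DESeq2's Wald test and 0 to 1 with single libraries left out (1 without negative 6 or negative 8). With single libraries left out the subunit median ranged from -0.36 to -0.19, the assembly factor median from -0.24 to -0.09 and the number of subunits lower at an unadjusted p under 0.05 from 4 (without positive 5, where 5.81% of all rows were lower) to 9 (without negative 6 or negative 8, 7.95% and 7.16% of all rows). The subunit median was -0.17 with limma voom and library weights and -0.12 without both positive 1 and negative 2. With library totals alone 4 subunits were lower. The Q module median turned to 0.10 with library totals, 0.05 with upper quartile scaling and 0.04 with at least 50 counts, and the ND4 module median to 0.06 without both libraries. Of 41 members, 27 kept their direction under all 16 alternatives, and 14 changed sign under at least 1. With library totals NDUFB3 (0.03), NDUFA11 (0.03), NDUFAF3 (0.06) and NDUFS3 (0.10) turned, NDUFS3 also with upper quartile scaling (0.05) and at least 50 counts (0.04). With limma voom NDUFB3 (0.11), NDUFB10 (0.04), NDUFV1 (-0.10), NDUFA11 (0.56) and NDUFV2 (-0.10) turned. Without both libraries NDUFB3 (0.14), NDUFA2 (0.00), NDUFB10 (0.14), NDUFV1 (-0.11), NDUFA11 (0.72) and NDUFV2 (-0.12) turned. With single libraries left out, estimates that changed sign ranged from -0.33 to 0.25 for NDUFB3, -0.41 to 0.47 for NDUFA11, -0.25 to 0.28 for NDUFV2, -0.03 to 0.24 for NDUFV1, -0.25 to 0.00 for NDUFA2, -0.08 to 0.10 for NDUFS3 and for the Q module, -0.06 to 0.19 for NDUFB1, -0.39 to 0.05 for NDUFAF1, -0.04 to 0.44 for NDUFAF5, -0.01 to 0.16 for NDUFA4 and -0.47 to 0.11 for NDUFA4L2. The cause was not tested. At 4 libraries a group and these depths, changes of the size seen here had intervals that mostly spanned 0.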
